A study of Drosophila melanogaster with 78 samples.

Results

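The fly gut breaks down dietary protein and carbohydrate with enzymes encoded by small gene families, and 39 of these genes were followed here across tissues, ages and genotypes. They were chosen by name alone from a transcript table: symbols that begin with Jon and a digit (16 Jonah proteases), end in Try (11 trypsins), or begin with Amy- (2 amylases), Mal-A (8 maltases A) or Mal-B (2 maltases B). Their 49 transcripts, of 33570 in the table, were summed per gene, which gave 39 of 17394 genes. The rule used names and no measured value.

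Jonah proteases and trypsins are serine endoproteases that the midgut epithelium secretes into the gut lumen, where they cut food proteins into peptides. Trypsins cut after lysine or arginine, and the Jonah enzymes are related to chymotrypsins. Amylases cut starch into short chains of glucose, and maltases (alpha-glucosidases) release single sugars from maltose and sucrose. The genes lie in clusters of neighbours that arose by duplication, and transcription of such genes is known to respond to diet, including repression of digestive enzymes by sugar.

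RNA came from female Drosophila melanogaster kept on sugar-yeast-agar food. The dilp 2-3,5 mutants lack the genes for insulin-like peptides 2, 3 and 5, have reduced insulin signalling and had been backcrossed into wDah. The wDah flies, an outbred wild type that carries the bacterium Wolbachia, served as their reference. Each genotype was sampled at days 10, 30 and 50 in 4 tissues: gut (without the crop but with the Malpighian tubules), thorax with the gut removed, fat body (the abdomen after removal of gut and ovaries) and brain. Each of the 24 groups had 3 biological replicates, and the transcript table gives 1 pooled value per group.

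The labels were checked first. FPKM, a read count corrected for transcript length and library size, were divided by the FPKM sum of the group and multiplied by 1000000, and the result is called the level in what follows. Among the deleted genes, Ilp2 had a level of 0.808 in dilp 2-3,5 brains and 513 in wDah brains at day 10, Ilp3 had 0.0837 and 78.4, and Ilp5 had 0.234 and 83.1. The 4 enterocyte markers mex1, Npc1b, GATAe and nub summed to 345 in dilp 2-3,5 guts and 686 in wDah guts at day 10. Most of this gap was Npc1b, at 148 and 467, while mex1 had 153 and 179, GATAe 15.2 and 13.6 and nub 28.4 and 26.7. Outside the gut the highest sum of the 4 markers was 13.8, in wDah thoraces at day 10. Day 10 samples were generated independently of the later ages, so that a difference between day 10 and a later age cannot be told apart from that of the sample sets. In bulk tissue, fewer cells of a type and less RNA per cell cannot be told apart either.

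Sequence upstream of 5 Jonah genes is shown because Jon65Aiii, Jon65Aiv and Jon25Biii were the Jonah genes of highest gut level, while Jon66Ci and Jon66Cii had the widest genotype difference of all members at day 50. Each run holds the 120 bases before the annotated start in the BDGP6 assembly, read 5′ to 3′ on the gene's strand. Capitals mark TATAAA, the core of the TATA box, and GATAAG, the core bound by GATA factors such as the midgut regulator GATAe, on either strand (TTTATA and CTTATC on the reverse). The motifs cannot overlap each other.
Jon66Ci (chr3L:8391420-8391539, plus strand): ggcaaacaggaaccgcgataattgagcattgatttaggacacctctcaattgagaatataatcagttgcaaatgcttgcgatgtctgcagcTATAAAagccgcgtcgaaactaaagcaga
Jon66Cii (chr3L:8393650-8393769, minus strand): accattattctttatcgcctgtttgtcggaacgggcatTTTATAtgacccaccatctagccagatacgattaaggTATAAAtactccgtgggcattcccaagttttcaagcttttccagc
Jon65Aiii (chr3L:6050637-6050756, plus strand): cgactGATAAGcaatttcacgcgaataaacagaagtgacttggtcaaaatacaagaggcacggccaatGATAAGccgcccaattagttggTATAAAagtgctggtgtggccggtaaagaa
Jon65Aiv (chr3L:6039035-6039154, plus strand): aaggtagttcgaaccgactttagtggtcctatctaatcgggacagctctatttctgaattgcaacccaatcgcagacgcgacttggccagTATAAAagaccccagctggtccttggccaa
Jon25Biii (chr2L:4950768-4950887, minus strand): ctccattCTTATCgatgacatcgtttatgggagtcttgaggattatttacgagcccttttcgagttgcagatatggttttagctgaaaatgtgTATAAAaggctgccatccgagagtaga

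In these 5 windows TATAAA began 29 bases before the start of Jon66Ci, 82 and 45 before Jon66Cii (the more distant match on the reverse strand), 30 before Jon65Aiii, 30 before Jon65Aiv and 27 before Jon25Biii. GATAAG began 115 and 52 bases before Jon65Aiii and 113 before Jon25Biii, and its letters did not occur in the other windows. Over all members, TATAAA was found in 25 of 39 windows (64.1%), against 23.8% of the 13945 windows of coding genes. It was most frequent upstream of the Jonah genes, with 14 of 16, followed by 6 of 11 trypsins, 4 of 8 maltases A, 1 of 2 maltases B and neither amylase. GATAAG was found in 24 of 39 member windows (61.5%), against 10.5% of those of coding genes, with 10 of 16 Jonah genes, 7 of 11 trypsins, both amylases, 5 of 8 maltases A and neither maltase B. A match of letters in a window is not evidence that a factor binds there.

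Some members resemble each other closely enough that short reads may have been shared between them. Of the stretches of 100 bases in their transcripts, gammaTry shared 100% and deltaTry 95.2% with another gene, and the values of these trypsins are therefore uncertain. The share was 59.8% in Jon99Cii, 39.5% in Jon99Ciii, 48.4% in Amy-d and 46.5% in Amy-p, and at most 15.8% in the other members. No maltase shared such a stretch. Jon66Ci and Jon66Cii, whose 3′ ends face each other across 442 bases on chromosome 3L, shared 13.0% and 13.1%. Mal-B1 and Mal-B2 lie within the larger gene Pde1c, and Mal-A1, Mal-A8, Jon44E and deltaTry overlap other coding genes, so that reads of these members may include those of the neighbour.

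Proteases made up most of the members' summed FPKM in gut. In dilp 2-3,5 guts the 39 genes took up 7.51% of the FPKM sum at day 10, 2.13% at day 30 and 2.39% at day 50. Their share was 6.26%, 1.65% and 1.52% in wDah guts. The low shares at the later ages go with genes under 300 bases, which made up between 28.2% and 41.9% of the FPKM sum in the day 10 groups and between 66.8% and 85.1% in the later ones. As a share of the sum over longer genes, the members made up 10.5%, 8.92% and 8.34% in dilp 2-3,5 guts and 9.33%, 7.67% and 6.82% in wDah guts at days 10, 30 and 50. Levels are therefore compared within an age, and comparisons between ages rest on FPKM as deposited or on FPKM scaled by the median ratio over genes, whose factors lay between 0.939 and 1.04.

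**Figure D1:**
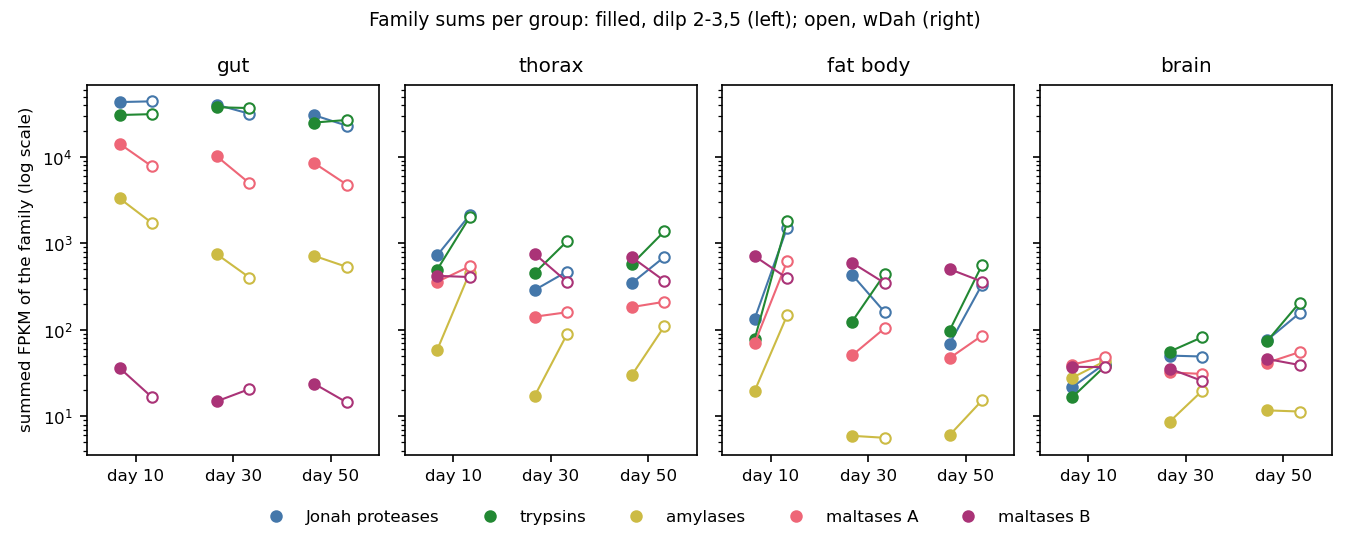
Summed FPKM of the 5 families (vertical axis, log scale) in each tissue, with dilp 2-3,5 as filled and wDah as open points at days 10, 30 and 50, 1 pooled value per group. In gut the Jonah sums lie between 22966 and 43983, and the maltases A of dilp 2-3,5 lie above those of wDah at all 3 ages, at 14216 against 7758 at day 10.

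alphaTry, a trypsin, was the most abundant member and ranked 2 among genes of at least 300 bases in dilp 2-3,5 guts and 4 in wDah guts at day 10. Its level was 14056 in dilp 2-3,5 and 11773 in wDah guts. Jon65Aiv, Jon65Aiii, betaTry and Jon25Biii ranked between 9 and 12 in dilp 2-3,5 and between 11 and 15 in wDah guts. Mal-A1 was the highest carbohydrase, at rank 16 in dilp 2-3,5 and 31 in wDah, and Mal-A6 followed at rank 23 and rank 63. At the other end, gammaTry had a level of 1.01 in dilp 2-3,5 and 1.40 in wDah guts, at ranks 8210 and 7634. The members thus ran through most of the range of levels found in 1 tissue.

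Of the 37 members with a mean level of at least 1 over all groups, 34 had a highest gut level at least 2-fold above their highest level in any other tissue, against 9.28% of the 9437 genes that passed the same minimum. The 2 members under it, Jon66Cii and gammaTry, were also highest in gut. The 3 exceptions were maltases. Mal-A5 reached 4.26 in gut, in dilp 2-3,5 at day 10, and 168.5 in dilp 2-3,5 thoraces. Mal-B1 reached 7.36 in gut and 309.5 in dilp 2-3,5 thoraces, and Mal-B2 reached 22.5 in gut and 503.7 in dilp 2-3,5 fat bodies, all at day 10. All 3 encode alpha-glucosidases, and their transcripts were most abundant outside the gut.

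Next, gut levels were compared between genotypes at each age. A member was counted as higher or lower if its level, plus a pseudocount of 1, differed by at least 2-fold, among genes with a mean gut level of at least 1, which all 39 members passed. In dilp 2-3,5 guts 6 members were higher at day 10 (2.09% of all genes), 9 at day 30 (1.84%) and 15 at day 50 (3.54%). None was lower at day 10 (1.35% of all genes) or at day 50 (1.18%), and 1, Mal-B1, was lower at day 30 (1.73%). With median-ratio scaling the members higher numbered 4 at day 10 (1.74% of all genes), 8 at day 30 (2.98%) and 10 at day 50 (3.05%). Because each group is 1 pooled value, these counts have no test. The deposited 95% limits of each value are the only error at hand. They did not overlap for 3, 5 and 10 of the members that were higher at days 10, 30 and 50. The median log2 difference of the members was 0.32, 0.42 and 0.63 at the 3 ages, beside 0.13, 0.08 and 0.33 over all genes.

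The families differed in this count. At days 10, 30 and 50 it took in 4, 5 and 6 of the 8 maltases A, 0, 2 and 7 of the 16 Jonah proteases, 1 of the 2 amylases at each age (Amy-d) and 1 of the 2 maltases B at each age (Mal-B2). It took in none of the 11 trypsins at any age. With median-ratio scaling it took in 2, 4 and 3 maltases A and 0, 2 and 5 Jonah proteases. All 8 maltases A lay above the median of all genes at all 3 ages.

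**Figure D2:**
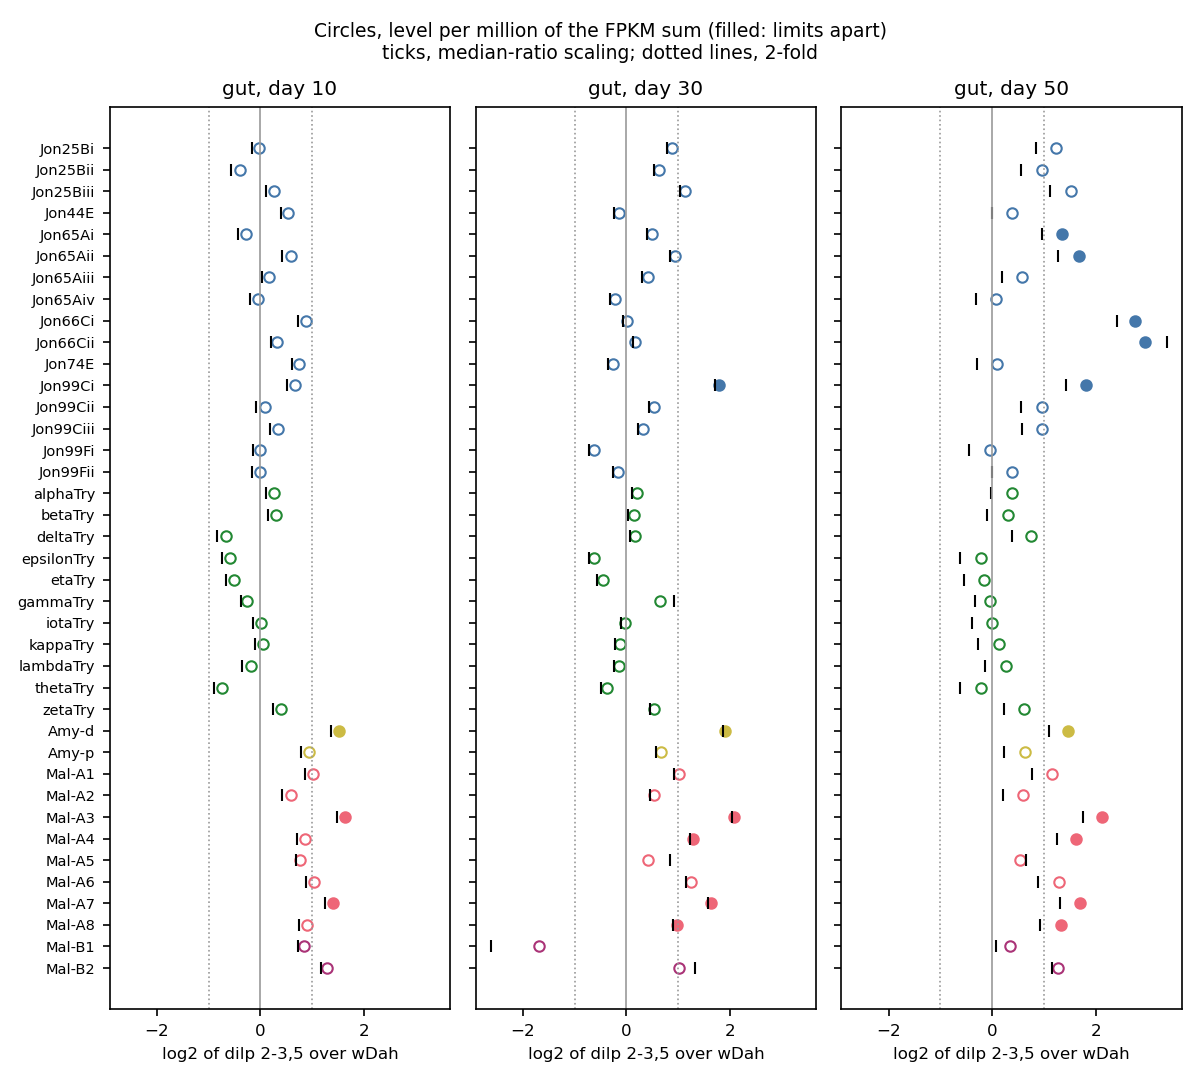
Log2 of dilp 2-3,5 over wDah in gut (horizontal axis) for each of the 39 members at days 10, 30 and 50, as level per 1000000 with pseudocount 1 (circles, filled where the deposited 95% limits did not overlap) and with median-ratio scaling (ticks). Dotted lines mark 2-fold. The maltases A and Amy-d lie to the right at every age, the trypsins lie around 0, and Jon66Ci and Jon66Cii move past 2 only at day 50, at 2.75 and 2.94.

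Among the proteases, the summed level of the 16 Jonah genes was 35484 in dilp 2-3,5 and 32484 in wDah guts at day 10, 9638 and 7070 at day 30, and 11236 and 6343 at day 50. The log2 difference of these sums was 0.13, 0.45 and 0.83, but with median-ratio scaling it was −0.03, 0.35 and 0.43, so that the direction at day 10 turned with the scaling. The limits of the sums overlapped at every age. The log2 difference of single members ran from −0.40 (Jon25Bii) to 0.88 (Jon66Ci) at day 10, while at day 30 the extremes were −0.63 (Jon99Fi) and 1.79 (Jon99Ci). The range at day 50, from −0.04 (Jon99Fi) to 2.94 (Jon66Cii), was the widest of the 3.

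The 3 Jonah proteases of highest level had limits that overlapped at every age. Jon65Aiv had a level of 7420 in dilp 2-3,5 and 7681 in wDah guts at day 10, 1178 and 1363 at day 30, and 1350 and 1277 at day 50, which differed by at most 0.21 on the log2 scale. Jon65Aiii, from the same cluster on chromosome 3L, had 7371 and 6529 at day 10, 1695 and 1276 at day 30, and 1928 and 1286 at day 50, with log2 differences of 0.17, 0.41 and 0.58. Neither gene reached 2-fold. Jon25Biii on chromosome 2L had 6470 in dilp 2-3,5 and 5382 in wDah guts at day 10, 2319 and 1058 at day 30, and 2717 and 952 at day 50. Its log2 difference was 0.27, 1.13 and 1.51, although its limits, between 551 and 4883 in dilp 2-3,5 and between 575 and 1329 in wDah at day 50, overlapped.

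Jon66Ci and Jon66Cii had the widest difference at day 50. They fall outside the rule for naming genes and were singled out after their values had been seen. The level of Jon66Ci was 134.9 in dilp 2-3,5 and 72.9 in wDah guts at day 10, 22.6 and 22.2 at day 30, and 97.1 and 13.6 at day 50. Its day 50 limits ran between 66.6 and 128 in dilp 2-3,5 and between 9.92 and 17.3 in wDah, which is a 6.72-fold difference with limits apart. Jon66Cii, a gene of low level, had 4.39 in dilp 2-3,5 and 3.31 in wDah guts at day 10, 2.11 and 1.78 at day 30, and 10.9 and 0.557 at day 50. Its limits at day 50, between 5.93 and 15.9 against between 0.122 and 0.991, did not overlap, and the difference was 7.66-fold. Both folds were taken after the pseudocount of 1 was added, which is more than the wDah level of Jon66Cii itself. At day 30, the same pair of genes differed by 0.02 and 0.16 on the log2 scale between genotypes.

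Jon99Ci on chromosome 3R stood apart at both later ages. Its level was 1198 in dilp 2-3,5 and 752 in wDah guts at day 10, 338 and 97.0 at day 30, and 346 and 98.0 at day 50. The limits at day 30 ran between 214 and 461 in dilp 2-3,5 and between 75.4 and 119 in wDah. Its neighbours Jon99Cii and Jon99Ciii stayed below 2-fold at every age, with the reservation that these 2 genes share reads. Jon65Ai, at 1.35, and Jon65Aii, at 1.67 on the log2 scale, also had limits apart at day 50, and Jon25Bi, at 1.23, passed 2-fold with limits that overlapped. These genes too were named after their values had been seen. Their differences are given by the FPKM sum. With median-ratio scaling 5 Jonah proteases, rather than 7, passed 2-fold at day 50.

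**Figure D3:**
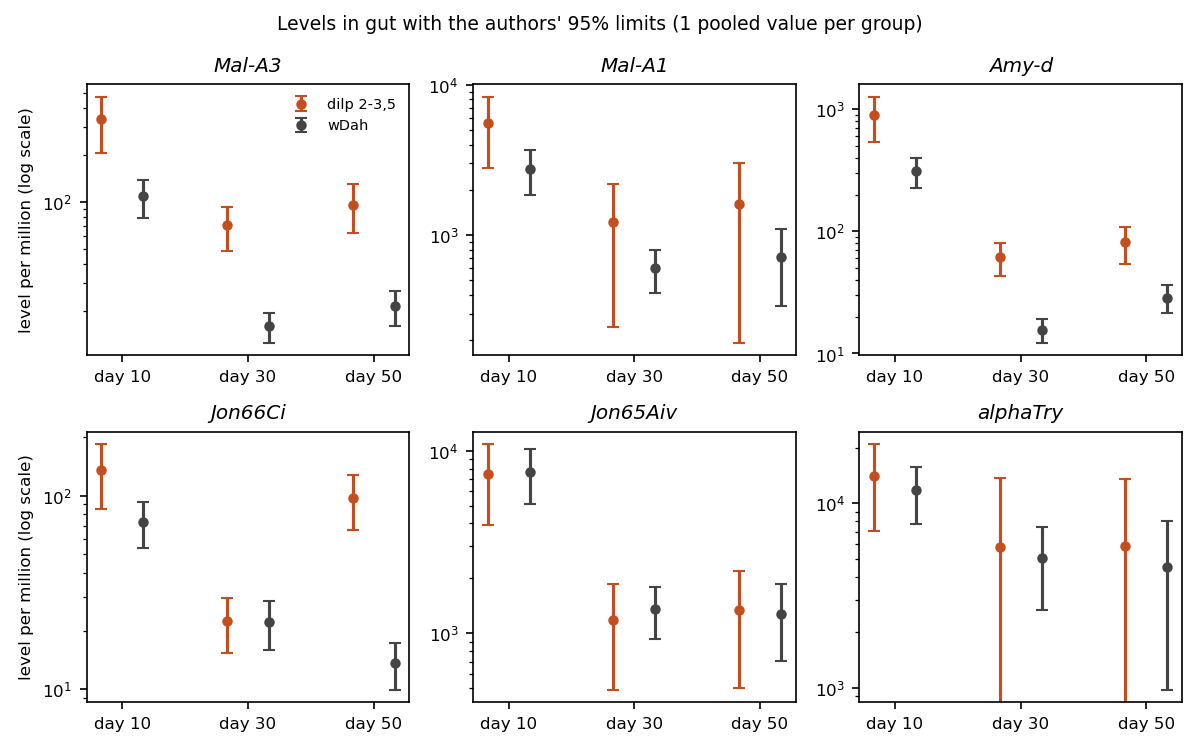
Gut level per 1000000 (vertical axes, log scale) of Mal-A3, Mal-A1, Amy-d, Jon66Ci, Jon65Aiv and alphaTry in dilp 2-3,5 and wDah at days 10, 30 and 50, with the deposited 95% limits as bars. A bar that leaves the lower edge reaches 0. Mal-A3 and Amy-d have limits apart at all 3 ages, Jon66Ci at day 50 alone (66.6 to 128 against 9.92 to 17.3), and Jon65Aiv and alphaTry at none.

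The trypsins were the family with the smallest genotype differences. Their summed level was 25136 in dilp 2-3,5 and 23098 in wDah guts at day 10, 9030 and 8225 at day 30, and 9257 and 7396 at day 50. The log2 difference of these sums was 0.12, 0.14 and 0.32, but with median-ratio scaling it was −0.03, 0.04 and −0.07, so that its direction depended on the scaling. alphaTry made up the largest share of it, with 5784 in dilp 2-3,5 and 5030 in wDah guts at day 30 and 5854 and 4510 at day 50. betaTry, the next in level, had 6767 and 5504 at day 10, 2445 and 2226 at day 30, and 2560 and 2080 at day 50. Log2 differences of both genes lay between 0.14 and 0.38 at all ages, and their limits overlapped widely. At day 50 median-ratio scaling gave −0.02 for alphaTry and −0.10 for betaTry.

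epsilonTry and thetaTry were lower in dilp 2-3,5 guts without reaching 2-fold. epsilonTry had 1993 in dilp 2-3,5 and 3008 in wDah guts at day 10, 244 and 376 at day 30, and 215 and 251 at day 50, with log2 differences of −0.59, −0.62 and −0.22. thetaTry had 641 and 1069 at day 10, 101 and 132 at day 30, and 85.5 and 99.5 at day 50. The trypsin cluster on chromosome 2R, between positions 11336840 and 11357537 of BDGP6, thus held genes on either side of 0. Of the 11 trypsins 3, 5 and 3 lay above the median of all genes at days 10, 30 and 50.

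Among the carbohydrases, the summed level of the 2 amylases was 2733 in dilp 2-3,5 and 1269 in wDah guts at day 10, 180 and 90.2 at day 30, and 265 and 148 at day 50. The log2 difference of the sums was 1.11, 0.99 and 0.85, and 0.95, 0.90 and 0.45 with median-ratio scaling. Amy-d and Amy-p encode near-identical enzymes and lie 4460 bases apart on opposite strands of chromosome 2R, and reads that fit both genes make the split between them uncertain. Amy-d had a level of 899.8 in dilp 2-3,5 and 314 in wDah guts at day 10, 61.8 and 15.7 at day 30, and 81.2 and 28.7 at day 50. These were differences of 2.86-, 3.77- and 2.77-fold with limits apart at each age. Amy-p had 1833 and 955 at day 10, 118 and 74.5 at day 30, and 184 and 119 at day 50, which stayed below 2-fold with overlapping limits.

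The maltases A, 8 genes in 1 cluster on chromosome 2R between annotated positions 8449664 and 8473961, were higher as a family. Their summed level was 11700 in dilp 2-3,5 and 5730 in wDah guts at day 10, 2434 and 1111 at day 30, and 3133 and 1319 at day 50. The log2 difference of the sums was 1.03, 1.13 and 1.25, and on FPKM as deposited the sums were 14216 and 7758, 10123 and 4965, and 8458 and 4775. The limits of the family sums overlapped at each age.

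Mal-A3 had the widest difference of the cluster. Its level was 338.5 in dilp 2-3,5 and 109 in wDah guts at day 10, 70.7 and 16.0 at day 30, and 96.1 and 21.5 at day 50. The limits at day 10 ran between 206 and 471 in dilp 2-3,5 and between 79.1 and 139 in wDah. The differences were 3.09-, 4.22- and 4.31-fold, and 2.78-, 4.10- and 3.35-fold with median-ratio scaling, all with limits apart. Mal-A7 had 783 and 299 at day 10, 132 and 41.6 at day 30, and 177 and 54.0 at day 50, which were differences of 2.62-, 3.13- and 3.24-fold with limits apart. Both genes were thus higher in dilp 2-3,5 guts at each age under either scaling.

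The more abundant maltases A had wide limits. Mal-A1 had 5557 in dilp 2-3,5 and 2764 in wDah guts at day 10, 1214 and 603 at day 30, and 1599 and 718 at day 50. Its differences of 2.01-, 2.01- and 2.22-fold became 1.81-, 1.88- and 1.69-fold with median-ratio scaling, and its limits overlapped. Mal-A6 had 3893 and 1902 at day 10, 802 and 339 at day 30, and 989 and 407 at day 50, with log2 differences of 1.03, 1.24 and 1.28. Its limits overlapped as well. Mal-A1 and Mal-A6 thus made up most of the family sum but lay close to the 2-fold line. Mal-A4 and Mal-A8 had limits apart at days 30 and 50, where their log2 differences were 1.29 and 1.62 for Mal-A4 and 0.97 and 1.32 for Mal-A8. Mal-A2 lay between 0.54 and 0.59 at the 3 ages.

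The maltases B were scarce in gut, and their limits reached 0 in every gut group. Mal-B2 had 22.5 in dilp 2-3,5 and 8.57 in wDah guts at day 10, 3.17 and 1.06 at day 30, and 5.77 and 1.82 at day 50. Mal-B1 had 7.36 and 3.68 at day 10, 0.423 and 3.57 at day 30, and 3.03 and 2.17 at day 50, and it was the only member counted as lower. Neither gene's gut difference stood outside its limits.

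In the other tissues, the maltases B and Mal-A5 were abundant in both genotypes. Mal-B1 had a level of 309.5 in dilp 2-3,5 and 278 in wDah thoraces at day 10, 240 and 117 at day 30, and 274 and 155 at day 50, with limits that overlapped. Mal-B2 was the highest maltase in fat body, with 504 in dilp 2-3,5 and 368 in wDah at day 10, 89.8 and 66.1 at day 30, and 145 and 82.2 at day 50, again with overlapping limits. Mal-A5 had 168.5 in dilp 2-3,5 and 80.4 in wDah thoraces at day 10, a 2.08-fold difference with limits apart, but 18.8 and 16.5 at day 30 and 17.1 and 12.3 at day 50. Mal-A5 was also the member of highest level in brain, at 50.6 in dilp 2-3,5 and 51.0 in wDah brains at day 10. The gut-poor maltases were thus found mainly in samples of thorax, fat body and brain. The fat body markers Lsp2, Yp1, Yp2 and Yp3 summed to 36827 in dilp 2-3,5 and 47935 in wDah thoraces at day 10. Their sums were 19820 and 30395 in brains, and 29071 and 35212 in fat bodies, where Yp1 was 0 in wDah. Which cells of these samples held the maltase transcripts was not tested.

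Gut values at day 50 were then set against those at day 30 within each genotype, with median-ratio scaling. In dilp 2-3,5 guts 3 members were at least 2-fold higher at day 50 (1.62% of all genes) and 1 was lower (1.26%). In wDah guts none was higher (1.32% of all genes) and 2 were lower (0.95%). The members higher in dilp 2-3,5 were Jon66Ci, Jon66Cii and Mal-B1, with log2 differences of 1.49, 1.66 and 1.75, and gammaTry, whose reads are shared with another gene, was the lower one. Jon66Cii, at −1.57, and deltaTry, at −1.04, were lower in wDah. On FPKM as deposited, Jon66Ci had 262 at day 50 and 93.8 at day 30 in dilp 2-3,5 guts, against 49.3 and 99.4 in wDah guts. The Jon66C genes therefore stood higher at day 50 in the mutant and lower in wDah.

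The counts depended on the scaling. With the FPKM sum, which moved the median of all genes by 0.45 in dilp 2-3,5 and by 0.19 in wDah, 4 members were higher in dilp 2-3,5 guts (2.3% of all genes) and none was lower (0.516%). In wDah guts none was then higher (1.06% of all genes) and none lower (0.491%). Jon65Ai was the member added in dilp 2-3,5, and Jon66Ci and Jon66Cii were higher under both scalings.

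Values at day 10 can be set beside those at day 30 only with the reservation on sample sets. With median-ratio scaling 7 members were at least 2-fold lower (6.45% of all genes) and 3 higher (9.11%) at day 30 in dilp 2-3,5 guts. In wDah guts 9 were lower (6.39% of all genes) and 1 higher (7.8%). The counts of higher members were thus no greater than the share of all genes. Amy-d had 257 FPKM at day 30 and 1093 at day 10 in dilp 2-3,5 guts, and 70.0 and 425 in wDah guts. The trypsin alphaTry, in contrast, did not differ by 2-fold under this scaling in either genotype.

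Protease transcripts were also found in the tissues from which the gut had been removed, and there their levels differed between genotypes and between libraries. The 39 members summed to 2162 in dilp 2-3,5 and 4962 in wDah thoraces at day 10, and to 743 and 4468 in fat bodies. In these fat bodies the Jonah genes summed to 98.55 in dilp 2-3,5 and 1516 in wDah, and the trypsins to 57.3 and 1791. The maltases B, highest outside the gut, summed to 521 and 395 there. In the thoraces the Jonah genes summed to 761 and 1898, the trypsins to 520 and 1802, and the maltases B to 442 and 366.5. Of 32 members above the minimum level in thorax, 15 were at least 2-fold lower in dilp 2-3,5 at day 10 (2.27% of all genes), 8 at day 30 (2.34%) and 11 at day 50 (2.66%). Members higher in thorax numbered 2 (1.73% of all genes), 2 (0.582%) and 1 (1.36%) at these ages. Of 29 in fat body, 22 were lower at day 10 (6.93% of all genes), 9 at day 30 (1.87%) and 11 at day 50 (1.97%), while 9 were higher at day 30 (1.26%). In brain, 6 of 16 were lower at day 10 (1.79% of all genes), 1 at day 30 (1.37%) and 1 at day 50 (1.19%). The minimum level is a mean over all groups of a tissue, so that a member can pass it through a single high group. In thorax and fat body the Jonah genes and trypsins were highest in wDah at day 10. The day 10 counts of lower members there can therefore be partly set by this filter. alphaTry, which in wDah at day 10 was the member of highest level in both thorax and fat body, had 33.1 in dilp 2-3,5 and 945 in wDah fat bodies at that age, with limits apart. In dilp 2-3,5 fat bodies Mal-B2, at 504, stood above it.

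The counts outside the gut also depended on the scaling, and the same limit of the filter holds for them. With median ratios 17 of 34 members were lower in dilp 2-3,5 thoraces at day 10 (2.85% of all genes), 7 at day 30 (3.01%) and 11 at day 50 (2.7%). Those higher in thorax then numbered 1 (1.06%), 3 (0.934%) and 2 (1.72%). Of 33 in fat body 24 were lower at day 10 (3.99%), 10 at day 30 (3.02%) and 21 at day 50 (5.19%), while 14 were higher at day 30 (2.87%). In brain 6 of 25 were lower at day 10 (1.86%), 1 at day 30 (1.94%) and 11 at day 50 (3.2%). Fat body and brain at day 50 were thus the comparisons in which the scaling mattered most.

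Enterocyte markers were also lower in dilp 2-3,5 thoraces and in fat bodies at days 10 and 50. Their sums in brain at day 10 and in fat body at day 30 were close but near the floor. The 4 markers mex1, Npc1b, GATAe and nub summed to 7.44 in dilp 2-3,5 and 13.8 in wDah thoraces at day 10, and to 1.45 and 11.6 in fat bodies. In fat body their sums were 0.827 and 0.942 at day 30 and 0.482 and 2.16 at day 50, when the members summed to 187 and 202 and to 215 and 314. Of these member sums the maltases B made up 91.8 and 66.6 at day 30 and 149.8 and 83.8 at day 50. The Jonah genes summed to 66.9 and 30.7 at day 30 and to 20.4 and 77.2 at day 50. The trypsins summed to 19.2 and 84.0 at day 30 and to 29.05 and 129.7 at day 50. In brain at day 10 the marker sums were 1.06 and 1.08, of which nub made up 0.681 and 0.581. The member sums were 200 and 273, of which the Jonah genes made up 30.3 and 53.5 and the trypsins 23.1 and 49.75. In thorax the middle gut markers lab and Vha100-4 went the other way. They summed to 2.31 in dilp 2-3,5 and 1.57 in wDah at day 10, 0.277 and 0.156 at day 30, and 0.584 and 0.182 at day 50. In fat bodies at day 10 they summed to 0.177 and 0.6. Neither of them passed the minimum level in thorax or fat body. None of the 4 enterocyte markers passed the minimum level in brain, and 1 of 4 did in fat body. Marker sums this low cannot show whether gut material differed there. The part of gut material in the levels outside the gut was not tested. At day 30 the fat body proteases went in both directions, with Jon25Biii at 25.7 in dilp 2-3,5 and 0.553 in wDah and Jon65Aiv at 1.97 and 12.7.

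betaTry alone of the 39 genes had an entry among the 1194 circular RNAs (circRNAs) of the deposited read counts, and this gave values for single libraries. The circle spans positions 11346351 to 11346568 on the plus strand of chromosome 2R, which is 218 bases within the gene, and linear reads were counted at the same ends. The longest annotated transcript of betaTry has 1 exon, and the circle lies inside it. Whether its reads come from back-splicing or from an artefact at an abundant transcript was not tested. At day 10 the dilp 2-3,5 guts had 2, 0 and 2 circular reads, against 5, 7 and 5 in wDah guts. At day 30 they had 0, 1 and 0, against 10, 9 and 11. At day 50 they had 1, 1 and 0, against 0, 2 and 0. The genotypes did not overlap at days 10 and 30 and overlapped at day 50.

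These circular reads were tested with edgeR's quasi-likelihood test across all circRNAs of the tissue and age, with Benjamini-Hochberg adjustment. At day 30 the log2 difference of dilp 2-3,5 over wDah was −4.26 ± 0.97 (SE, n = 3 each) with an adjusted p of 0.00266, where 3.7% of the 135 circRNAs tested passed 0.05. With all libraries DESeq2 gave an adjusted p of 0.0446. The adjusted p of edgeR was 0.0670 without dilp 2-3,5 replicate 1 and 0.0648 without dilp 2-3,5 replicate 3. At day 10 the difference was −2.23 ± 0.78 (SE, n = 3 each) and did not pass, with an adjusted p of 0.373 in the edgeR test and 0.8% of 250 circRNAs passing. The 4 reads at day 50 were too few to be tested. The linear reads of betaTry in gut lay between 2368 and 4539 in all 18 libraries and most lay close together whatever the genotype or age, at 3955, 3998 and 3973 in dilp 2-3,5 and 3928, 3982 and 3977 in wDah at day 10. It was not tested whether the counting set a ceiling on these reads, and they cannot be read as equal levels in the genotypes. No test of a difference was made.

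**Figure D4:**
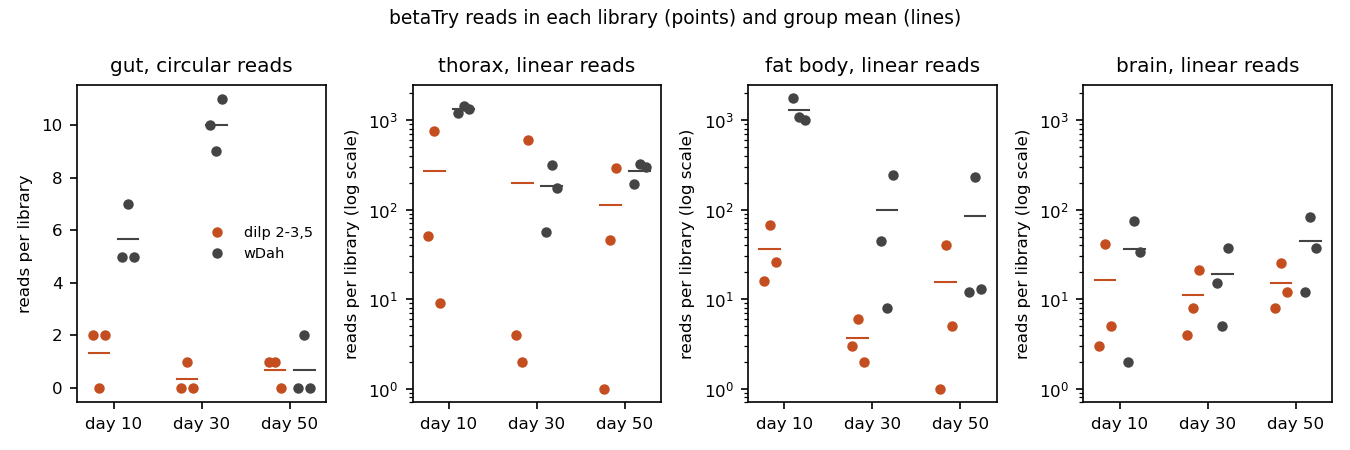
betaTry reads per library in dilp 2-3,5 and wDah at days 10, 30 and 50, as circular reads in gut (linear axis) and linear reads in thorax, fat body and brain (log axes), with points for libraries and lines for group means. The circular reads separate at day 30 (0, 1 and 0 against 10, 9 and 11), and the linear reads of fat body at day 10 (16, 67 and 26 against 1747, 1096 and 1010).

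Outside the gut, the linear reads of betaTry varied widely between replicates. In fat body at day 10 the dilp 2-3,5 libraries had 16, 67 and 26 linear reads and the wDah libraries 1747, 1096 and 1010. The groups were far apart, with a log2 difference of −5.02 ± 0.37 (SE, n = 3 each) and an adjusted p of 1.08e-08 in edgeR, where 3.65% of all circRNA loci passed. At day 30 the fat bodies had 3, 6 and 2 reads in dilp 2-3,5 and 44, 8 and 242 in wDah, which gave an adjusted p of 0.537 in edgeR (1.22% passed) and 0.0111 in DESeq2. At day 50 they had 1, 40 and 5 against 12, 229 and 13, with an adjusted p of 0.794 (0.751% passed), and a log2 difference of −2.42 that was 0.27 without wDah replicate 2. The wDah replicates thus differed by more than 10-fold at both later ages.

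In thorax at day 10 the dilp 2-3,5 libraries had 51, 755 and 9 linear reads and the wDah libraries 1193, 1431 and 1328. The groups did not overlap, but the spread in dilp 2-3,5 gave a log2 difference of −2.47 with an adjusted p of 0.496 in edgeR (9.38% of loci passed). Without dilp 2-3,5 replicate 2 the difference was −5.96 with an adjusted p of 0.00905. The later thorax groups overlapped, with adjusted p of 0.979 at day 30 (0.207% passed) and 0.767 at day 50 (3.62% passed) in edgeR. In brain no group had more than 83 linear reads in a library, and the adjusted p of edgeR was 0.936 at day 10 (0.0842% passed), 0.855 at day 30 (1.44% passed) and 0.418 at day 50 (5.41% passed).

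Other genes of digestion and uptake were taken from a list of 31 symbols, of which 22 were in the table and 21 above the minimum level in gut. Of these, 5 were at least 2-fold higher and 4 lower in dilp 2-3,5 guts at day 10 (2.09% and 1.35% of all genes). At day 30, 3 were higher and 5 lower (1.84% and 1.73%), and at day 50, 7 were higher and 4 lower (3.54% and 1.18%). tobi, an alpha-glucosidase outside the maltase cluster, had 1780 in dilp 2-3,5 and 781 in wDah guts at day 10, 215 and 126 at day 30, and 329 and 168 at day 50. Amyrel, which encodes an amylase-related enzyme, had 79.7 and 16.1 at day 10, 1.46 and 0.698 at day 30, and 3.40 and 1 at day 50. Both carbohydrases were thus higher in the mutant at each age, as were Amy-d and the maltases A.

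Genes known to regulate digestion or to respond to sugar were taken from a second list of 19 symbols, 18 of them in the table. In gut 1 was at least 2-fold higher in dilp 2-3,5 at day 10 (2.09% of all genes), none at day 30 (1.84%) and 1 at day 50 (3.54%). None was lower at any age (1.35%, 1.73% and 1.18% of all genes). sug, which encodes the sugar-responsive transcription factor Sugarbabe, had 53.5 in dilp 2-3,5 and 58.4 in wDah guts at day 10, 13.6 and 16.3 at day 30, and 16.4 and 17.8 at day 50. daw, which encodes an activin-like ligand, had 8.39 and 11.5 at day 10, 3.63 and 3.38 at day 30, and 2.86 and 2.14 at day 50. GATAe had 15.2 and 13.6, 7.84 and 7.34, and 13.2 and 9.71 at the same ages. These 3 regulators stayed below 2-fold at every age.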

How the data were processed

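The authors made rRNA-depleted single-end libraries from total RNA and mapped the reads to BDGP6. The deposited FPKM were made with HISAT2 2.0.4, StringTie 1.3.0 and Cuffdiff 2.2.1, 1 value per group pooled over 3 replicates, with the authors' 95% limits in the same unit. The deposited read counts of circRNAs, circular and linear, came from STAR 2.5.2b and DCC and are not normalized. The libraries held between 503 and 38812 circular and between 60382 and 245298 linear reads, which limits the precision of genes with few reads. The strand setting of the counting is not given in the sources used here.

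FPKM were summed per gene (Python 3.11.15, pandas 2.3.3), scaled by the FPKM sum of the group and compared as log2 of the level plus 1. Pooled values carry no test. Counts of betaTry were tested with edgeR 4.0.16 under R 4.3.3, with robust estimates and at least 10 reads over 6 libraries, and with DESeq2 1.42.0 as an alternative. These tests were added after the data had been seen. Replicates are separate biological samples per the labels. The edgeR fit was tried on counts simulated for day 10 alone, at a dispersion of 0.1. That trial covers neither the day 30 result nor replicates spread as widely as those of betaTry.

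Genes named in full were the 3 of highest gut level per family, those past 2-fold the same way at all 3 ages or in opposite ways at different ages, and the highest member of each other tissue. Members and lists were chosen with earlier results of these data known. Upstream bases and positions came from the BDGP6 genome and annotation. The deposited tables of the authors' beta-binomial comparisons, which hold p-values, and the tables of polysome-bound RNA were not used. Alternatives covered scaling, pseudocount, filters, limits and, for reads, each replicate left out.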

Additional observations from a re-analysis of the deposited data

How the results depend on the processing

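Of 108 recomputed family sums none left the limits summed from the deposited values, but these limits could hardly show a change. For the maltases B they reach 0 and exclude no value. For the other sums they were added over members, and ran from −4.31 to 3.05 for the trypsins at day 50. Of the 108 sums 8 changed sign. The Jonah difference at day 10 was −0.03 with no scaling and −0.03 with median ratios. The trypsin difference was −0.03 and −0.03 under these settings at day 10, −0.10 and −0.07 at day 50, and −0.01 at day 30 and −0.04 at day 50 over genes from 300 bases. The difference of all members at day 50 was 0.65 by the FPKM sum, 0.23 with no scaling and 0.25 with median ratios. Of 119 recomputed counts of members, 101 stayed within 1.5 times and 18 moved. Asking that the authors' limits be apart left 3 higher gut members at day 10, 5 at day 30, 0 lower at day 30 and 2 higher at day 50 over day 30 in dilp 2-3,5. A pseudocount of 10 or a minimum level of 10 each left 0 lower members at day 30 and 2 higher at day 50 over day 30 in dilp 2-3,5. For members lower at day 50 than at day 30, dilp 2-3,5 guts had 1 with no scaling, with median ratios, without the 20 highest genes, over genes from 300 bases (chosen after seeing the data) or with a pseudocount of 0.1. In wDah guts the same settings gave 2 with no scaling, 2 with median ratios and 1 with each of the other 3. The cause was not tested. Replicates could not be left out of the pooled FPKM, and this alternative was not run.

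For betaTry reads, all of whose settings were chosen after seeing the data, the replicate number as a block made the linear difference pass in fat body at day 50 (log2 −2.34, adjusted p 1.76e-17 in edgeR) and in brain at day 50 (−1.71, 2.98e-11) and changed no other call. In these 2 comparisons the deviations of same-numbered libraries correlated at 0.318, 0.067 and 0.249 in fat body and at 0.236, 0.211 and −0.024 in brain. In the other comparisons the correlations ran from −0.372 to 0.247. The labels give no pairing, and whether same-numbered libraries belong together cannot be settled from these values. The fat body difference at day 50 ran from −4.79 to 0.27 when each library was left out in turn, and was reversed without wDah replicate 2. Circular reads per gut library, at most 11, limit what can be seen of the circle.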

Other observations

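Further genes of the digestive list went in both directions in gut. The lysozymes LysD and LysE, enzymes that break bacterial cell walls in the midgut, were higher in the mutant at the later ages. LysD had 4315 in dilp 2-3,5 and 2852 in wDah guts at day 10, 1411 and 616 at day 30, and 1803 and 562 at day 50. LysE had 642 and 470, 116 and 46.6, and 186 and 46.2 at the same ages. LysX went the other way, with 97.4 and 181 at day 10, 2.03 and 53.5 at day 30, and 22.4 and 75.4 at day 50. These lysozyme genes are close relatives, and a split of reads between them was not tested.

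Of 3 listed genes of sterol uptake, Npc1b and Npc2e were lower in dilp 2-3,5 guts at each age and Npc2d was not. Npc1b, needed for the absorption of dietary sterol, had 148 in dilp 2-3,5 and 467 in wDah guts at day 10, 24.4 and 50.6 at day 30, and 29.0 and 42.7 at day 50. Npc2e, which encodes a sterol-binding protein, had 459 and 1612, 113 and 310, and 122 and 280 at the same ages. Npc2d, of the same family, had 275 and 253, 80.9 and 103, and 95.2 and 92.4. Npc1b is also 1 of the 4 enterocyte markers, and mex1 alone had 153 and 179, 91.1 and 102, and 105 and 84.8.

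Serine proteases outside the Jonah and Try names went in both directions. Try29F had 6.68 in dilp 2-3,5 and 30.5 in wDah guts at day 10, 0.622 and 5.01 at day 30, and 0.590 and 2.76 at day 50. yip7 had 5686 and 8269, 1500 and 2709, and 1404 and 2142, below 2-fold by the FPKM sum, while median-ratio scaling gave a log2 difference of −1.01 at day 50. Ser8 was higher in the mutant, with 78.4 and 23.5 at day 10, 12.6 and 8.61 at day 30, and 30.1 and 14.2 at day 50. Ser12 had 6.25 and 13.5 at day 10, 0.128 and 0.0289 at day 30, and 2.36 and 0.0558 at day 50. Each of these is 1 pooled value per group with no test. The Malpighian tubule markers CapaR, Irk2 and ZnT35C, whose tissue was part of the gut samples, summed to 116 and 82.2 at day 10, 29.6 and 21.8 at day 30, and 41.1 and 28.7 at day 50.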
